A study of Mus musculus with 14 samples.

Results

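The Iroquois homeobox (Irx) genes are 6 genes in 2 genomic clusters, and H3K27me3 at these 6, chosen by name out of 21938 protein-coding genes, was followed through the maturation of the mouse cerebellum. H3K27me3 is trimethylation of lysine 27 of histone H3, here mapped by chromatin immunoprecipitation and sequencing. The tissue was cerebellum of C57BL/6NCrl mice, a wild-type strain, at postnatal days 7, 14 and 60 (P7, P14 and P60), with 3 libraries at each stage and mice of both sexes. By the study's methods each P7 library came from 3 pooled mice, each P14 library from 2 and each P60 library from 1 mouse, so stage and pool size cannot be told apart. A further 5 libraries came from Atoh1-Cre; Kdm6b fl/fl mice (Kdm6b-cKO, 3 libraries), in which Cre acts in granule neuron precursors, and Kdm6b fl/fl mice without Cre (Kdm6b-WT, 2 libraries). Between 25 and 74 peaks of each of those 5 lists lay past the ends of mm10 chromosomes, so they are not used here at the Irx loci.

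Irx proteins are homeodomain transcription factors of the TALE class, in which 3 extra amino acids lie between the first and second helices of the homeodomain. They pattern the neural tube, heart, limbs and retina, and in the chick Irx2 acts in the formation of the cerebellar primordium. H3K27me3 is written by Polycomb repressive complex 2 and erased by KDM6 demethylases, and developmental transcription factors with CpG-rich promoters are its classic targets. The IrxA cluster (Irx1, Irx2 and Irx4) spanned 1317.7 kb of chromosome 13 (mm10, 71954921 to 73272608, with 3 kb outside the outermost genes). The IrxB cluster (Irx3, Irx5 and Irx6) spanned 888.4 kb of chromosome 8 (91795525 to 92683956).

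The deposited files were lists of broad peaks, so the measure was the percent of a window or cluster lying under peaks, with the read depth unknown. Each gene's promoter value was that of its most covered window of 3 kb on each side of an annotated transcription start site (TSS). Peaks covered 0.379% ± 0.156 of the genome at P7, 0.253% ± 0.107 at P14 and 0.0967% ± 0.0395 at P60 (SD, n = 3 each), so the P60 lists covered the least of the genome before any gene was considered. Covered length depends on depth and on the peak calling as well as on the mark, and is not a measure of its amount in the tissue. By the study's western blot, the total amount of H3K27me3 on cerebellar histones rose between P7 and P14 and stayed up at P60, the other way from covered length. The 3 libraries with the narrowest peaks were P14 replicate 1, P60 replicate 1 and P60 replicate 2, with median widths of 269, 134 and 149 bp against 410 to 751 bp in the other 6. All 6 forebrain transcription factors of a marker list were marked in 2 or more libraries, and their mean coverage was 30.7% ± 3.45 at P7, 25.7% ± 9.86 at P14 and 0.724% ± 0.779 at P60. The 12 genes of the granule neuron lineage averaged 4.27% ± 3.44, 3.81% ± 2.44 and 0.169% ± 0.155 at the same stages, with 5 of the 12 marked in 2 or more libraries. By the test used below for the Irx genes, 5 of the 6 forebrain factors tested fell in P60 against P7 cerebellum, 1 of the 5 granule neuron genes tested, 4 of 6 oligodendrocyte, 1 of 4 astrocyte and Bergmann glia and 3 of 4 Purkinje cell genes, and none rose, against 45.8% of all 5120 genes tested that fell. In bulk tissue, fewer cells carrying the mark, less of the mark per cell and less of it called as peaks cannot be told apart.

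The promoters themselves are shown first, because the CpG content and the place of the peaks differ between members. Of the 6 genes, 3 matched the RefSeq promoter table (GRCm38.p6, 250 bases before to 50 bases after the start), and Irx1, Irx5 and Irx6 are named only. In the following sequences, read 5′ to 3′ in the direction of transcription, capitals mark CG dinucleotides.
Irx2, chr13:72628570-72628869, + strand: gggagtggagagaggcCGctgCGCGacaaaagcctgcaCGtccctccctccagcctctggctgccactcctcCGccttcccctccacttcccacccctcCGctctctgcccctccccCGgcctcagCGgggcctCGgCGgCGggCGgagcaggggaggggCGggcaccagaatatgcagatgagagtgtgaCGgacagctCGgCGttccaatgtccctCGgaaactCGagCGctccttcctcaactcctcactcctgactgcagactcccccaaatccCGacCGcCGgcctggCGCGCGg
Irx4, chr13:73260247-73260546, + strand: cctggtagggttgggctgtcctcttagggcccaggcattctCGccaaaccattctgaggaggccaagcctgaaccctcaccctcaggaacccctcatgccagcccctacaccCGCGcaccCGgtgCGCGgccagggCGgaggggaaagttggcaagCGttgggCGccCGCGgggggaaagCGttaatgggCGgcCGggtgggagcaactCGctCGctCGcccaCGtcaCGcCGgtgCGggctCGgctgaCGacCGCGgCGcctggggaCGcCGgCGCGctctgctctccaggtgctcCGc
Irx3, chr8:91801605-91801904, - strand: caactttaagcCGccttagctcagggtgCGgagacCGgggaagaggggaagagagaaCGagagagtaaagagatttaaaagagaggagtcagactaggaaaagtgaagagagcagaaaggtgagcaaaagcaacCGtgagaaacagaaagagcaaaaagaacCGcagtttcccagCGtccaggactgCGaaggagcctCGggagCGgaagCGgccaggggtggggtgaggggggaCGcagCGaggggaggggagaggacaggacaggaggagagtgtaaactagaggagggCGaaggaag
The Irx2 promoter held 25 CG dinucleotides, the Irx4 promoter 31 and the Irx3 promoter 14. Over 27025 promoters of the same length the median was 7, and 18.4%, 10.3% and 36.9% of them held at least as many as Irx2, Irx4 and Irx3. The starts in this promoter table lay 0, 18 and 413 bp from the 5′ ends of Irx2, Irx4 and Irx3 used below. Over windows of 3 kb on each side the order differed, at 56.7, 33.2 and 59.8 CG dinucleotides per kb for Irx2, Irx4 and Irx3. The 300 bases of Irx2 lay wholly under a peak in P7 replicate 1 and in P14 replicates 2 and 3 and under none in the other 6 libraries. The 300 bases of Irx4 were 72.7% to 100% covered at P7, 0%, 85% and 75% covered in the 3 P14 libraries, and 0% covered at P60. The 300 bases of Irx3 lay under no peak in any of the 9 libraries.

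All 6 Irx promoters were under H3K27me3 peaks in every P7 library, and 5 of the 6 had no peak in any P60 library. Averaged over the 6 genes, promoter coverage was 29.9% ± 10.9 at P7, 24.1% ± 14.7 at P14 and 0.316% ± 0.387 at P60 (SD over 3 libraries). The P60 and P7 values did not overlap for any member. Nor did the percent of the genome under peaks, at 0.0543% to 0.132% at P60 and 0.271% to 0.558% at P7. How many other genes separated in this way was not counted. In limma with Benjamini-Hochberg adjustment over the 5120 genes tested, 6 of 6 members fell in P60 against P7 cerebellum. The share of all tested genes that fell was 45.8%, and the median difference was -30.91 points for the members and -11.99 points for all genes tested, so the direction is that of many promoters in these libraries.

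**Figure D1:**
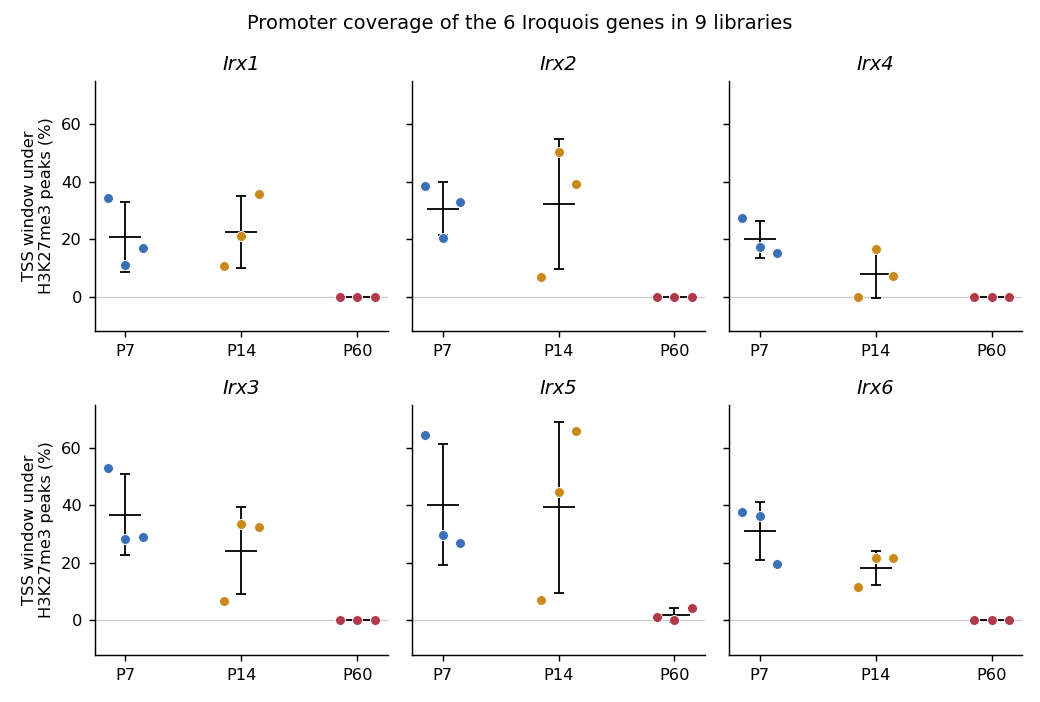
Promoter coverage of the 6 Iroquois genes: the y axis gives the percent of each gene's most covered TSS window under H3K27me3 peaks, the points are single libraries at P7, P14 and P60, and the bars are means with SD (n = 3 each). Every P60 value is 0 except for Irx5 at 1.2% and 4.48%, and P14 replicate 1, the left point of each P14 group, is the lowest P14 value of every gene.

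In the IrxB cluster, Irx5 had the highest mean coverage over the 9 libraries, 27.1%. Irx5 acts in the repolarization gradient of the mouse heart and in retinal bipolar cells. Its window (gene at chromosome 8, 92357625 to 92376286, + strand) was covered to 1.2%, 0% and 4.48% in the P60 libraries, against 64.4%, 29.5% and 26.8% in the P7 libraries. The difference was -38.36 points (SE 13.5, limma adjusted p = 0.0368), with every P60 library below every P7 library. The P14 libraries were covered to 7.22%, 44.7% and 65.9%, a range that takes in all the P7 values.

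Irx5 was the one member with any peak at its promoter at P60. In P60 replicate 1 this was a single peak of 72 bp ending 596 bp before the 5′ end (chromosome 8, 92356958 to 92357029), with a fold enrichment of 3.06 and a -log10 q of 1.58. In P60 replicate 3 it was a peak of 269 bp inside the gene (92359127 to 92359395), with a fold enrichment of 2.22 and a -log10 q of 1.32. These 2 peaks do not touch, so no base of the Irx5 promoter was marked in more than 1 P60 library.

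Irx3, which acts in the ventricular conduction system of the mouse heart and in the patterning of the neural tube, lies at the start of the cluster (91798525 to 91802067, - strand). Its window was covered to 0% in all 3 P60 libraries, against 53.0%, 28.3% and 29.0% in the P7 libraries. The difference was -36.76 points (SE 8.32, limma adjusted p = 0.00493). At P14 it was covered to 6.67%, 33.7% and 32.5%, within or below the P7 range in each library. Irx3 also differed from the other 5 genes in where the peaks lay. No peak of any library came within 500 bp of its 5′ end. A gap of 2276 bp (91801210 to 91803485) separated a marked stretch in the gene body from one upstream, and both stretches overlapped exons of the antisense gene Irx3os. The 5′ ends of the other 5 genes all lay inside a marked region. Such a gap was not rare: of 2163 protein-coding genes whose 5′ window was marked in 6 or more libraries, 267 (12.3%) had no peak within 500 bp of the 5′ end in any library.

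Irx6, which acts in the maturation of a class of retinal bipolar cells in the mouse (92674288 to 92680956, + strand), was covered to 0% at P60, against 37.7%, 36.3% and 19.5% in the P7 libraries. The difference was -31.16 points (SE 5.65, limma adjusted p = 0.00181), and it had the smallest adjusted p of the 6. The P14 libraries were covered to 11.5%, 21.7% and 21.5%. Irx6 carried 2 separate marked regions with different courses. The region over its 5′ end (92673438 to 92675312) was 88.6%, 90.7% and 38.6% covered at P7, 36.8%, 69.5% and 68.9% at P14 and 0% at P60. The region inside the gene, over exons starting 2401 bp beyond the nearest TSS (92677227 to 92678761), was 93.8%, 88.5% and 89.8% covered at P7 and 0% in all 3 P14 and all 3 P60 libraries. It was singled out after its values were seen, and only P7 libraries had a peak in it. Its borders were thus drawn from P7 peaks alone, and it entered the test through P7 only. High cover at P7 and 0% elsewhere follow in part from this, so its tests are no separate support for a different course. The P60 against P7 difference of this region was -90.73 points (limma adjusted p = 0.00408 over the regions tested). Its P14 against P7 difference was the same, -90.73 points, with a limma adjusted p of 0.0791. In limma, 0 of 16829 regions passed for P14 against P7, and 3266 had an unadjusted p under 0.05.

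In the IrxA cluster, Irx2 had the highest mean coverage, 21% over the 9 libraries. Its window (gene at chromosome 13, 72628820 to 72634198, + strand) was covered to 0% at P60, against 38.4%, 20.5% and 33.0% in the P7 libraries. The difference was -30.67 points (SE 9.43, limma adjusted p = 0.0207). The P14 libraries were covered to 6.93%, 50.3% and 39.3%, so 2 of them lay above every P7 library. Within 500 bp of the Irx2 5′ end, coverage was 67.3%, 17.6% and 1.30% at P7 and 0%, 100% and 100% at P14, a stretch that takes in the Irx2 sequence printed.

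Irx1 lies at the start of the cluster (71957921 to 71963723, - strand), and its window was covered to 0% at P60, against 34.2%, 10.9% and 16.9% in the P7 libraries. The difference was -20.66 points (SE 7.16, limma adjusted p = 0.0346). At P14 its coverage was 10.6%, 21.2% and 35.8%, which overlapped P7 fully. Like Irx2, it was more covered within 500 bp of the 5′ end in P14 replicates 2 and 3 (77.6% and 90.6%) than in any P7 library (55.8%, 6% and 0%).

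Irx4, a regulator of ventricular identity in the heart (73260479 to 73269608, + strand), had the lowest mean coverage of the 6, 9.29%. Its window was covered to 0% at P60, against 27.2%, 17.4% and 15.2% in the P7 libraries. The difference was -19.95 points (SE 5.05, limma adjusted p = 0.00831). The P14 libraries were covered to 0%, 16.6% and 7.20%, so that Irx4 was the one member with no promoter peak in a P14 library.

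The order of the mean levels was Irx5, Irx2, Irx3, Irx6, Irx1 and Irx4, and neighbours in this order overlapped in their libraries at both P7 and P14. In 6 genes out of 6 the lowest of the P14 values was that of P14 replicate 1, where 5 of the 6 promoters had a peak and coverage ran from 0% to 11.5%. That library had 3.62 Mb under peaks in all, nearly the same as P60 replicate 3 with 3.61 Mb. P60 replicate 3 had a peak at 1 of the 6 promoters, Irx5, and coverage from 0% to 4.48%. Over all genes, mean promoter coverage was 1.26% in P14 replicate 1 and 1.34% in P60 replicate 3, with 2232 and 2083 marked 5′ ends. The 2 lists still differed in number of peaks (9475 and 6905) and in median width (269 and 410 bp). This is a comparison of 2 libraries picked for their like covered length, with no test.

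**Figure D2:**
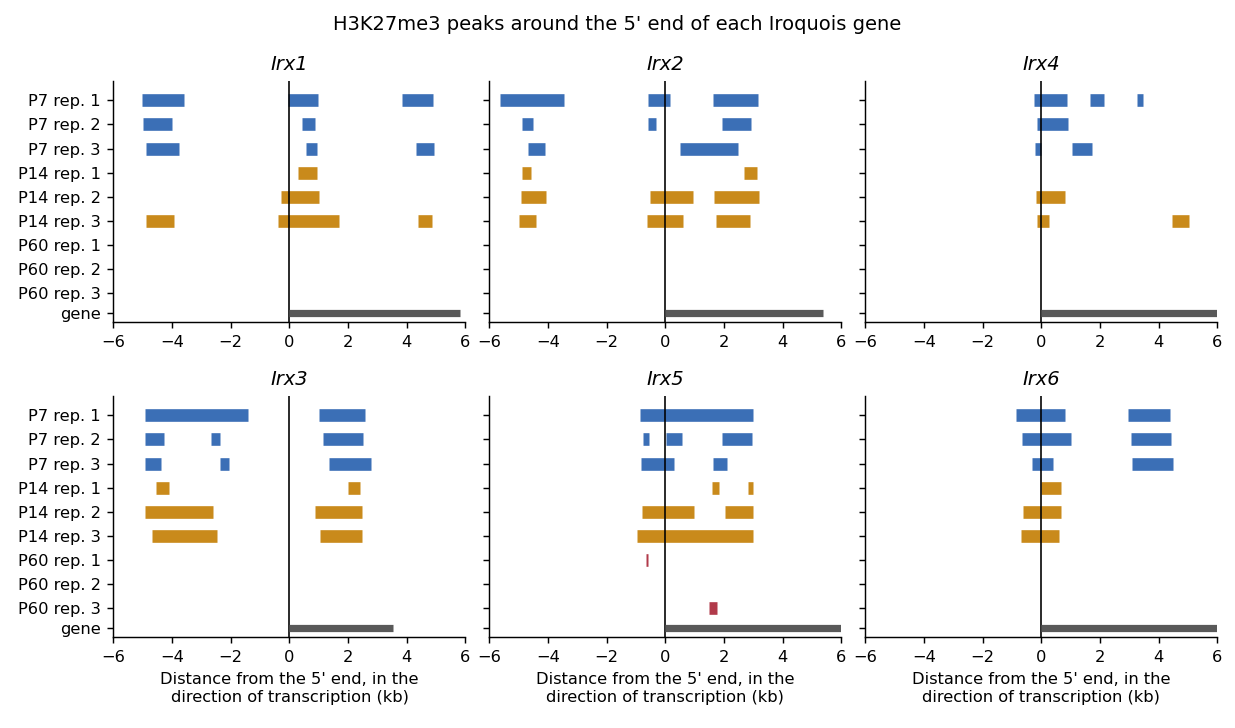
H3K27me3 peaks within 6 kb of the 5′ end of each Iroquois gene: the x axis is the distance in kb in the direction of transcription, each row is one library, each bar is a peak, and the grey bar is the gene. Peaks cover the 5′ end in P7 replicate 1 and in P14 replicates 2 and 3 for every gene but Irx3, where they stop on either side of it, and the Irx6 gene-body peaks are in P7 libraries only.

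Between P14 and P7, none of the 6 members passed the test (limma, adjusted p = 0.140 for Irx4, 0.151 for Irx6, and 0.324 to 0.984 for the others), against 12% of all tested genes called in either direction. At an unadjusted p under 0.05 there were 2, Irx4 with -12.03 points and Irx6 with -12.91 points. Between P60 and P14, none of the 6 passed either (adjusted p = 0.0748 to 0.358), against 2.07% of all tested genes. At an unadjusted p under 0.05 there were 5 of 6, the exception being Irx4. The differences ran from -7.93 points for Irx4 to -37.39 points for Irx5. Both shares are of calls after adjustment, and the share of all genes at an unadjusted p under 0.05 was not counted. The median difference was -23.41 points for the members and -4.86 for all genes tested between P60 and P14. Between P14 and P7 it was -6.50 and -5.73 points. Without P14 replicate 1, the library of narrow peaks, 5 of the 6 fell in P60 against P14 cerebellum, all but Irx4, while 1107 of the 5054 genes tested in that setting fell as well (21.9%).

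The peaks behind the P60 against P7 calls were weak. Across the 9 lists the lowest -log10 q was about 1.00, and no peak in either cluster went above 6.37. The threshold that the study's methods state for its ChIP-seq peaks amounts to a -log10 q of 2, so the lists also hold peaks under it. When peaks under a -log10 q of 2 were dropped, none of the 6 passed (adjusted p = 0.131 to 0.524), although all 6 differences stayed negative. Of the 3839 genes tested in that setting, 1729 fell. With each list reduced to its 6905 strongest peaks, none passed (adjusted p = 0.0827 to 0.722), while 1833 of the 3970 genes tested fell. A further setting left out the 3 libraries of narrow peaks. That last setting leaves 1 P60 library, assumed to vary like the other stages. Its differences were those of all libraries for 5 genes, from -19.95 points for Irx4 to -36.76 points for Irx3, and -35.77 points for Irx5. These 5 genes were at 0% in every P60 library, so their differences cannot change when P60 libraries are left out. With each P60 library left out in turn, or P7 replicate 1, the calls of Irx1, Irx2 and Irx5 were lost and those of Irx3, Irx4 and Irx6 remained. With a P60 library left out the differences stayed at -20.66 points for Irx1 and -30.67 points for Irx2 and ran from -37.41 to -39.65 points for Irx5, while without P7 replicate 1 they were -13.90, -26.79 and -26.28 points for Irx1, Irx2 and Irx5. Leaving out P7 replicate 2 lost Irx5, and leaving out P7 replicate 3 lost Irx1 and Irx2.

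On average over the 6 genes, coverage was higher at the 5′ ends and downstream of them than upstream, though not at each gene. Within 500 bp of the 5′ end, the mean over the 6 genes was 45.2% ± 19.2 at P7, 52.9% ± 35.3 at P14 and 0% in each P60 library. From 500 to 3000 bp downstream it was 37.4% ± 9.16, 31.0% ± 16.9 and 0.598% ± 1.04, and over the same distances upstream 8.56% ± 6.51, 4.86% ± 4.47 and 0.160% ± 0.277. The downstream minus upstream difference averaged 18.5 points over the 9 libraries and was above 0 in 7 of them, those of P7 and P14 and P60 replicate 3. This contrast was chosen after its values were seen, and no test is given. Irx3 had no coverage within 500 bp of the 5′ end, and in P7 replicate 1 it was 63.3% covered upstream and 63.9% downstream. Irx6 was 8.08% covered upstream and 3.6% downstream in P14 replicate 3. The same asymmetry was present at protein-coding genes in general: at all 5′ ends marked in a library, downstream minus upstream came to 9.15 to 16.1 points in the P7 and P14 libraries, against 11.6 to 34.0 points for the Irx genes.

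**Figure D3:**
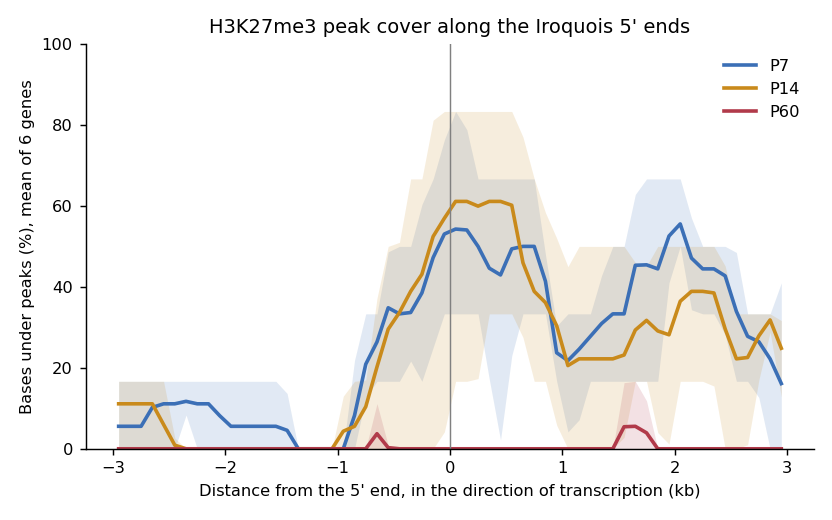
Mean percent of bases under H3K27me3 peaks along the 5′ ends of the 6 Iroquois genes, in 100-bp steps: the x axis is the distance from the 5′ end in kb in the direction of transcription, lines are stage means and bands run from the lowest to the highest library. P7 and P14 overlap along the whole window, and P60 is at 0 apart from the 2 short stretches that belong to Irx5.

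Over whole clusters, 3.93%, 1.85% and 1.61% of the IrxB cluster lay under peaks at P7, 0.503%, 1.83% and 2.63% at P14, and 0.00810%, 0.0450% and 0.436% at P60. For the IrxA cluster the values were 2.14%, 0.922% and 0.738% at P7, 0.258%, 1.26% and 1.51% at P14, and 0.0588%, 0.0412% and 0.342% at P60. Every P60 value was below every P7 value in both clusters, while P14 replicate 1 lay near the highest P60 library. The stage test over all arrangements of the libraries did not pass for either cluster (exact permutation test, p = 0.0964 for IrxB and p = 0.136 for IrxA, adjusted p = 0.121 and 0.136 over the 5 cluster tests, with 0.00357 the smallest it allows). With each list reduced to its strongest peaks up to an equal covered length, the P60 minus P7 difference was no longer negative, at 0.025 points for IrxB and 0.053 points for IrxA.

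The IrxB cluster was the more covered of the 2 in 8 of 9 libraries. Within libraries, IrxB minus IrxA averaged 0.618 points (two-sided exact sign-flip permutation test, p = 0.0117, adjusted p = 0.0293). This difference was 1.19 points at P7, 0.645 at P14 and 0.0155 at P60, and its stage test had an exact permutation p = 0.0286 (adjusted p = 0.0476), which leaving out any P7 or P60 library, or P14 replicate 2, took to between 0.0536 and 0.1. Relative to the marked share of the genome, the IrxB cluster was covered 6.32 ± 0.623 times as much at P7, 5.97 ± 2.01 times at P14 and 1.40 ± 1.68 times at P60. For IrxA the ratios were 3.18 ± 0.576, 3.60 ± 1.43 and 1.30 ± 1.11.

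The IrxB cluster was covered 2.55 ± 0.0655 times as much as the 500 kb on each side of it at P7, 3.32 ± 1.30 times at P14 and 0.449 ± 0.492 times at P60, and the IrxA cluster 2.12 ± 0.590, 2.13 ± 1.21 and 1.09 ± 0.690 times. The IrxB surroundings were 0.964% ± 0.491 covered at P7, 0.453% ± 0.170 at P14 and 0.244% ± 0.166 at P60, and those of IrxA 0.581% ± 0.238, 0.445% ± 0.112 and 0.178% ± 0.20. Of 19 other protein-coding genes in these stretches, 6 were marked in 2 or more libraries. Beside IrxA, Slc6a3, the dopamine transporter gene, fell in P60 against P7 cerebellum (3.70% ± 5.47 at P60 and 33.3% ± 7.32 at P7, limma adjusted p = 0.00353). Slc12a7, a potassium-chloride cotransporter gene, had 12.1% ± 7.96 at P60 and 24.1% ± 6.74 at P7 (adjusted p = 0.0932), and Tert, the telomerase reverse transcriptase gene, 3.01% ± 5.20 and 0% (adjusted p = 0.497). Beside IrxB, Lpcat2, a lysophospholipid acyltransferase gene, fell in P14 against P7 cerebellum (12.5% ± 12.5 at P14 and 37.0% ± 9.13 at P7, adjusted p = 0.0468) and stood at 5.03% ± 6.86 at P60 (adjusted p = 0.00458 against P7). Slc6a2, the noradrenaline transporter gene, fell in P60 cerebellum (9.5% ± 8.94 at P60 and 27% ± 2.59 at P7, adjusted p = 0.0213), and the metalloprotease gene Mmp2 had 2.38% ± 2.36 at P60 and 9.04% ± 4.21 at P7 (adjusted p = 0.187). Each of these 6 neighbours had a peak in at least 1 P60 library, and Tert had none at P7.

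**Figure D4:**
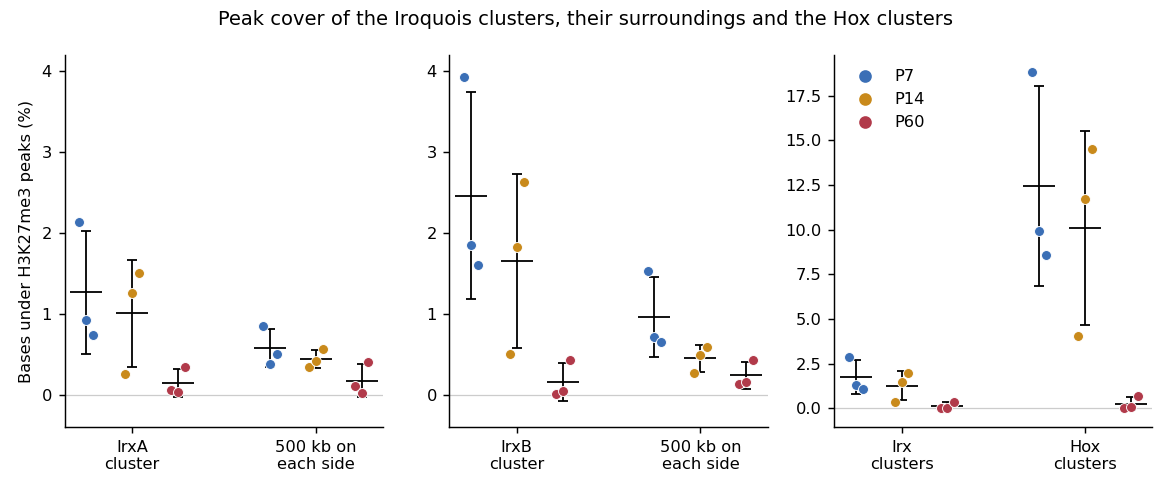
Percent of bases under H3K27me3 peaks in the IrxA cluster, the IrxB cluster and the 500 kb on each side of each, and in both Irx clusters together beside the 4 Hox clusters: points are libraries, coloured by stage, and bars are means with SD (n = 3 each). The y axis of the right panel differs, and the Hox clusters reach 18.8% in P7 replicate 1, where the Irx clusters are at 2.86%.

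The Hox clusters, the best known clustered homeobox genes and Polycomb targets, were far more densely covered. Both Irx clusters together had 1.75% ± 0.968 of their bases under peaks at P7, against 12.4% ± 5.58 for the 4 Hox clusters, 1.27% ± 0.825 against 10.1% ± 5.43 at P14, and 0.154% ± 0.196 against 0.246% ± 0.367 at P60. Irx minus Hox averaged -6.54 points and was below 0 in 8 of 9 libraries (two-sided exact sign-flip permutation test, p = 0.0117, adjusted p = 0.0293). The Irx clusters are long with few genes, and the windows around the member TSSs make up 1.98% of the IrxA and 2.12% of the IrxB cluster. These windows held 30.6% ± 8.54 of the IrxA and 30.9% ± 3.94 of the IrxB covered length at P7, and 31.7% ± 1.98 and 34.0% ± 3.13 at P14. At P60 they held none of the IrxA covered length, and 100%, 0% and 6.95% of the IrxB covered length in the 3 libraries, where the 100% is the single 72-bp peak of P60 replicate 1.

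**Figure D5:**
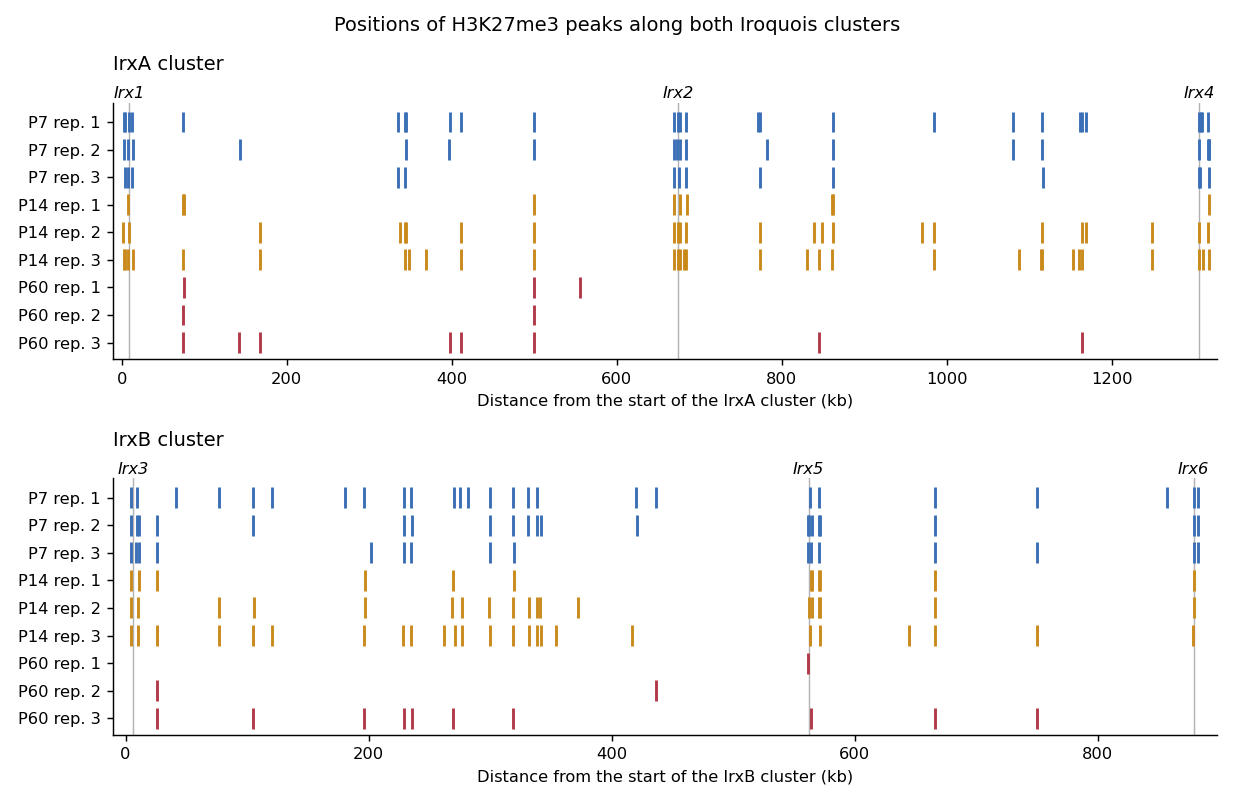
Position of every H3K27me3 peak along the IrxA and IrxB clusters: the x axis is the distance in kb from the cluster start, each row is one library, each tick marks a peak's centre, and grey lines are the gene 5′ ends. P7 and P14 ticks gather at the Irx genes and recur at the same places between them, while the P60 rows hold 2 to 8 peaks in IrxA and 1 to 10 in IrxB.

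Peaks of the 9 libraries merged into 87 regions in the clusters, 50 in IrxA and 37 in IrxB, of which 36 were seen in 1 library only and 51 were tested. None had a peak in all 9 libraries. There were 15 that every P7 library and no P60 library marked, and 0 with the reverse pattern. The share of all merged regions with either pattern was not counted, so the 15 cannot be read as particular to these clusters. In P60 against P7 cerebellum 11 of the 51 fell (limma, Benjamini-Hochberg over all 16829 regions tested), against 18.2% of all regions, and 1 rose, against 0.267%. Of the 11 that fell, 5 lay within 3 kb of a member TSS, out of 11 tested there, and 6 lay elsewhere, out of 40. The same split over all regions was not counted. By promoter coverage, a different measure, 45.8% of all genes tested fell. The 3 widest of the 15 were those over the Irx2 5′ end and the lincRNA gene Gm20554 (3809 bp, chromosome 13, 72628197 to 72632005), over Irx3os (3515 bp, chromosome 8, 91803486 to 91807000), and 2786 bp of intergenic sequence beyond Irx4 (chromosome 13, 73270129 to 73272914). Their differences were -48.32, -50.77 and -49.28 points, and none passed (limma adjusted p = 0.130, 0.119 and 0.163).

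The region away from a promoter with the smallest adjusted p lay between Irx3 and Irx5, 241921 bp from the nearest Irx5 TSS (intergenic, 2182 bp, chromosome 8, 92113523 to 92115704). It was covered to 0%, 0% and 6.05% in the P60 libraries, against 99.3%, 94.6% and 77.4% in the P7 libraries, and to 15.0%, 82.7% and 95.1% at P14. The difference was -88.41 points (limma adjusted p = 0.000964), larger than that of any region over an Irx 5′ end, and a second such region on its Irx3 side (92094254 to 92096328) fell by 87.81 points (adjusted p = 0.00165). Another region that fell lay in an intron of Irx5 (92365414 to 92367251, -79.25 points, adjusted p = 0.00525). The first 2 regions held 18.8 and 16.4 CG dinucleotides per kb. The tested regions at member TSSs held a median of 57.7 CG dinucleotides per kb and those elsewhere 18, against 8.52 over the whole IrxA and 11.5 over the whole IrxB cluster. The 200 most CG-rich bases of the first region, printed to set beside the promoter sequences, held 8 CG dinucleotides (capitals).
Distal IrxB region, chr8:92114024-92114223, + strand: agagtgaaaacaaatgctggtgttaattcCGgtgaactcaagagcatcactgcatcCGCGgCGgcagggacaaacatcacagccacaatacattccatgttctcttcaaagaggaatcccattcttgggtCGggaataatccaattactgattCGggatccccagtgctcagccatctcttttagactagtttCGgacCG
In the IrxA cluster the regions that fell away from the promoters were 1 upstream of Irx1 (chromosome 13, 71967320 to 71968756, -82.39 points, adjusted p = 0.00614), 1 over an exon of the lincRNA gene D730050B12Rik (72815226 to 72817659, -75.23 points, adjusted p = 0.00405) and 1 intergenic region between Irx2 and Irx4 (73069899 to 73071091, -76.45 points, adjusted p = 0.0112).

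The 1 region that rose lay between Irx1 and Irx2 (chromosome 13, 72454719 to 72455346) and was named after its values were seen. It was covered to 89.3%, 77.4% and 97.8% in the P60 libraries, against 72.9%, 59.1% and 0% in the P7 libraries, and to 64.3%, 86.3% and 98.4% at P14. The difference was 44.16 points (limma adjusted p = 0.0222), and every P60 library was above every P7 library. This region contains the whole of Rpl9-ps4, a processed pseudogene of 579 bp (72454762 to 72455340), which makes up 92.2% of it. The pseudogene matched an Rpl9 transcript, which encodes a ribosomal protein, at 578 of 579 aligned bases (99.8%). Reads from near-identical copies can be placed at more than 1 locus, and the part of this in the values was not tested. It was the only place in either cluster with a peak in all 3 P60 libraries, and the call was lost on leaving out any P7 library, P14 replicates 1 or 3, or P60 replicates 1 or 3.

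Among the other TALE homeobox genes, 5 of 12 were tested and 3 of these fell in P60 against P7 cerebellum, against 45.8% of all genes tested. Mkx had 0% at P60 and 52.0% ± 13.6 at P7 (limma adjusted p = 0.00619), Meis2, a MEIS-class cofactor of Hox proteins, 0% and 28.1% ± 19.3 (adjusted p = 0.0416), and Pknox2 0% and 17.2% ± 13.5 (adjusted p = 0.0257). The other 2 tested, which the naming rule does not cover, did not pass: Tgif2, with 16.8% ± 14.9 at P60 and 26.8% ± 10.7 at P7 (limma adjusted p = 0.311), and Tgif1, with 0.744% ± 1.29 and 11.5% ± 16.1 (adjusted p = 0.218). No gene of the 12 rose. All 6 Irx genes were marked in 2 or more libraries, against 5 of these 12, all 6 forebrain factors and 5120 of all 21938 protein-coding genes. This is a description for which no test was made.

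The genes with coverage most like each Irx gene, by the Euclidean distance over the 9 libraries in points, were picked from all protein-coding genes marked in 2 or more libraries. For Irx1 they were Foxb1 (7.63), Ptpn13 (8.23) and Sall3 (9.23), for Irx2 Grid1 (10.6) and Cys1 (17.3), and for Irx3 Gsc (11.3), Tbx1 (11.9) and Hs3st2 (12.2). For Irx5 they were Adamts9 (17.1), Fezf1 (18.7) and, at the same distance, Cilp2 and Yjefn3 (19.2). For Irx6 they were Slit1 (6.48), Mos (7.94) and Cacna2d2 (10.1). Irx4, with a mean under 10%, was not matched.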

How the data were processed

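Chromatin of cerebellum was immunoprecipitated for H3K27me3 and sequenced as single-end 50-bp reads. The submitters' processing notes name Trimmomatic 0.38, STAR 2.7.2b, MACS2 2.1, bedtools 2.25.0 and mm10. The authors deposited 1 broad peak list per library, made by MACS2 against a background the lists do not name, with a display score, a fold enrichment (a ratio), a -log10 p and a -log10 q for each peak. No counts or input were used here, so read depth is unknown and no interval for counting error can be given. Fewer or weaker reads shorten and remove peaks.

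Covered percentages were computed over TSS windows (GENCODE vM21 protein-coding genes, 3 kb on each side), both clusters and merged peak regions. Features marked in 2 or more of the 9 libraries were fitted in limma 3.58.1 (R 4.3.3; trend and robust options, no covariates) and adjusted by Benjamini-Hochberg over all of them, with a threshold of 0.05. Cluster values were compared by exact permutation. The limma step was tested on simulated data. Libraries of a stage were taken as replicates, as titled. The 5 Kdm6b lists were not analysed here, although the notes name mm10 for them too. Named genes were the 6 members, TALE genes past the threshold, neighbours within 500 kb marked in 2 or more libraries, and the 3 most similar genes of each member with a mean of 10% or more, of which 1 is not reported here. Members and lists were chosen with earlier results of these data known. Python 3.11 drew the figures. Alternatives were other peak thresholds, windows, scales, the replicate block and libraries left out.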

Additional observations from a re-analysis of the deposited data

How the results depend on the processing

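Of the 6 members that fell in P60 against P7 cerebellum, 0 passed with peaks of a -log10 q of 2 or more and 0 with an equal number of peaks. Without the 3 libraries of narrow peaks 1 P60 library is left, and the differences were -19.95 to -36.76 points. With a -log10 q of 4 or more, or with an equal covered length of 1.479 Mb, 0 passed because none was marked in enough libraries to be tested. Leaving out 1 library gave 3 to 6, while over all genes 1588 of 5054 (without P60 replicate 2) to 2731 of 4988 (without P7 replicate 3) fell. Over all genes, 2347 of the 5120 tested fell. The count was 1729 of 3839 at a -log10 q of 2 or more, 421 of 1618 at 4 or more and 250 of 1623 at equal covered length. It was 1833 of 3970 with an equal number of peaks and 1093 of 5120 when divided by each library's mean over all genes. On that last scale the genes that rose numbered 275, against 31, and 4 of the 6 members fell. For P14 against P7, 1 member passed with windows of 5 kb, where 612 of 5816 genes fell. With a library left out 0 to 1 passed, the 1 without P7 replicate 3, where 978 of 4988 genes fell. For P60 against P14, 2 passed with windows of 1 kb, 5 on the arcsine square root scale, 4 when divided by the library mean, and 0 to 5 with a library left out. Genes that fell in the first 3 of these settings numbered 500 of 4225, 959 of 5120 and 432 of 5120. Over all genes the P60 against P14 count was 106, and it ran from 0 without P7 replicate 2, among other libraries, to 1107 without P14 replicate 1.

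The signs of the P14 against P7 differences, none of which passed in the fit reported, changed in places. Irx1 went to -4.36 points with 5-kb windows and ran from -4.73 to 8.66 with a library left out. Irx2 went to -12.81 with an equal number of peaks, -1.57 with 5-kb windows, -0.75 as a mean over TSS windows, -0.0061 on the arcsine scale and ran from -7.54 to 14.17 with a library left out. Irx3 went to 6.60 at a -log10 q of 2 or more, 5.17 with an equal number of peaks, 4.30 with 1-kb windows and 0.24 in multiples of the library mean. Irx5 went to 11.43 at a -log10 q of 2 or more, 6.24 with an equal number of peaks, 15.07 without the narrow libraries, 4.54 in multiples of the library mean and ran from -14.28 to 15.07 with a library left out. Irx6 went to 1.66 at a -log10 q of 2 or more, 4.99 with an equal number of peaks and 0.11 in multiples of the library mean.

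The P60 minus P7 difference turned to 0.053 points for IrxA and 0.025 for IrxB with an equal covered length (exact permutation p = 0.0786 and 0.179). Divided by the percent of the genome covered, IrxB differed by -4.92 (exact permutation p = 0.0357), and with a library left out by -2.72 to -1.56 (exact permutation p = 0.0393 to 0.175). IrxB minus IrxA came to 0.092 at a -log10 q of 4 or more and 0.0045 with an equal covered length, and no longer passed. Its P60 minus P7 change came to -0.79 and -0.11 at minimum -log10 q values of 2 and 4, -0.028 with an equal covered length, -0.84 with an equal number of peaks, -1.10 without the narrow libraries and -1.34 to -0.88 with a library left out. Irx minus Hox came to -0.41 with an equal covered length (exact sign-flip permutation p = 0.0547). Of the 51 cluster regions tested 11 fell, against 3067 of all 16829 regions. At these minimum values 4 of 32 and 0 of 3 fell, against 2384 of 10171 and 530 of 3816 over all regions. With an equal covered length 0 of 3 fell, against 209 of 4979. With an equal number of peaks it was 5 of 30, against 2452 of 10778. With a library left out 3 to 14 fell, against 1291 to 3541 over all regions. The 1 that rose became 0 at both minimum values, 0 with an equal covered length, and 0 to 1 with a library left out. The causes were not tested.

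The replicate numbers did not pair the libraries: same-numbered libraries of different stages correlated at -0.216 to 0.249, not every library most with its own number. With the replicate number as a block, 4 of the 6 members fell (limma adjusted p = 0.0557 for Irx1 and 0.0529 for Irx5), 2044 genes in all. In that fit 0 genes were called for P60 against P14, and 10 cluster regions were lower, against 2610 of all 16829 regions. A fit with no filter on low values could not be made, since most variances were 0, and the Kdm6b-cKO against Kdm6b-WT comparison and its alternatives were not run.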
